A study of Homo sapiens with 5 samples.

Results

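The RNA of single MDA-MB-468 cells kept for 72 h with the inhibitor PF0517515 was compared with that of untreated cells of the same time. MDA-MB-468 is an established human breast cancer line of the triple-negative kind, and PF0517515 blocks acetyl-CoA carboxylase. A barcode counted as a cell with 1000 or more detected genes and no more than 20% of its unique molecular identifiers (UMIs, each counting 1 captured RNA molecule) from mitochondrially encoded genes. This left 1927 of 2057 barcodes with the inhibitor and 2920 of 2995 without it, together 4847 of the 15095 kept cells in the series. The inhibitor group was the line given PF0517515 for 72 h, and the control group the same line left untreated for 72 h. An untreated library at 0 h, with 3705 kept cells, is used here as a second reference. The labels give no dose, vehicle or culture density, and each group is 1 library of 1 line, so the inhibitor, the culture and the library cannot be told apart. With 1 library a side there is no spread between samples and no test, and intervals in parentheses are exact 95% intervals that cover counting error only.

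Acetyl-CoA carboxylase makes malonyl-CoA, the building block of fatty acid synthesis, which also restrains the import of fatty acids into mitochondria for oxidation. Its 2 forms are encoded by ACACA and ACACB. The series' title concerns stress of the endoplasmic reticulum (ER), the organelle in which secreted and membrane proteins fold and most membrane lipids are made. A cell under such stress slows translation, makes more ER chaperones such as HSPA5, and can switch on the transcription factors ATF4 and CHOP, the latter encoded by DDIT3.

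The largest block of RNA that was higher with the inhibitor came from genes of the translation machinery, whose messengers commonly begin with a cytosine followed by a run of pyrimidines. The start sites below belong to genes that were abundant, higher in most cells, or both, and a gene was shown only if it had such a start. For a gene with several start sites, one of this kind was taken. Each window runs from 40 bases before the first transcribed base to 20 bases from it on, in the gene's own direction, with the pyrimidine run at the start in capitals. They are RefSeq sequences of GRCh38.p14.
RPS12, chr6:132814529-132814588, plus strand: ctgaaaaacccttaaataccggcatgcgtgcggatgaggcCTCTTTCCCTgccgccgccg
RPL12, chr9:127451387-127451446, minus strand: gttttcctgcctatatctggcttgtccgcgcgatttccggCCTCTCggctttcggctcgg
EEF1A1, chr6:73521013-73521072, minus strand: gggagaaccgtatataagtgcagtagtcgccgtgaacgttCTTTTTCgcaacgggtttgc
ZFAS1, chr20:49278602-49278661, plus strand: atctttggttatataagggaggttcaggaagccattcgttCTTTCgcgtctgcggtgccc
SNHG12, chr1:28581854-28581913, minus strand: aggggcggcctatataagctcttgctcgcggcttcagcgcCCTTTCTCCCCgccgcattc

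Genes of 2 other groups, shown only where a match was found, are given with the element their group is known for. The ER stress element, searched as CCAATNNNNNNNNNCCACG on either strand, is bound under ER stress at chaperone promoters, and the CHR element, searched as TTTGAA on either strand, is common at promoters of mitotic genes. The letters that matched are in capitals.
HSPA5, chr9:125241371-125241429, minus strand: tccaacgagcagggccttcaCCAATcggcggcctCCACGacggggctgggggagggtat
HSP90B1, chr12:103930196-103930254, plus strand: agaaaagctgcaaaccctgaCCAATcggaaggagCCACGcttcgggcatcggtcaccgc
CALR, chr19:12938364-12938422, plus strand: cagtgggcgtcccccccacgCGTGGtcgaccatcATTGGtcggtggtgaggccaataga
CDC20, chr1:43358896-43358941, plus strand: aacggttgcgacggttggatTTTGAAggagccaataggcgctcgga
PLK1, chr16:23678840-23678885, plus strand: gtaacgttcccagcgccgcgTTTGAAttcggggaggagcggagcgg
A match describes these letters and does not show binding.

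Cells kept with the inhibitor held more UMIs than untreated ones. The median was 41573 UMIs per cell with the inhibitor, 29232 in the 72 h untreated library and 28980 at 0 h. A cell drawn from the inhibitor library held more UMIs than one drawn from the 72 h untreated library in 68.1% of all pairs of cells. The spread was also wider, with the 5th to 95th percentile running from 7747 to 86109 UMIs against 15521 to 59069. Cells of fewer than 10000 UMIs made up 6.95% (5.86 to 8.18) against 2.12% (1.63 to 2.71), and cells of more than 100000 UMIs 1.82% (1.27 to 2.52) against 0.171% (0.0556 to 0.399). Both ends of the distribution were thus more filled with the inhibitor. More RNA per cell, deeper sequencing of fewer cells and more doublets cannot be told apart in these values, and doublets were not removed. The filter also removed more barcodes there, 130 against 75, most of them for having under 1000 genes.

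Despite more UMIs per cell, fewer kinds of gene were seen at equal depth. The median number of detected genes was 6711 against 6249, but with every cell thinned at random to 5000 UMIs it was 2101.5 against 2272, and 2180 at 0 h. Thinning left 1868 inhibitor and 2885 untreated cells, since 59 and 35 kept cells had fewer UMIs. The make-up of each cell differed too. UMIs from mitochondrially encoded genes had a median share of 3.31% against 6.17%, and the inhibitor cell had the higher share in 13.7% of pairs. UMIs from cytosolic ribosomal protein genes had a median share of 25.3% against 16.4%, and the inhibitor cell had the higher share in 91.0% of pairs. At 0 h these shares were 5.63% and 18.6%, so the 72 h inhibitor library stood apart from both untreated ones.

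**Figure D1:**
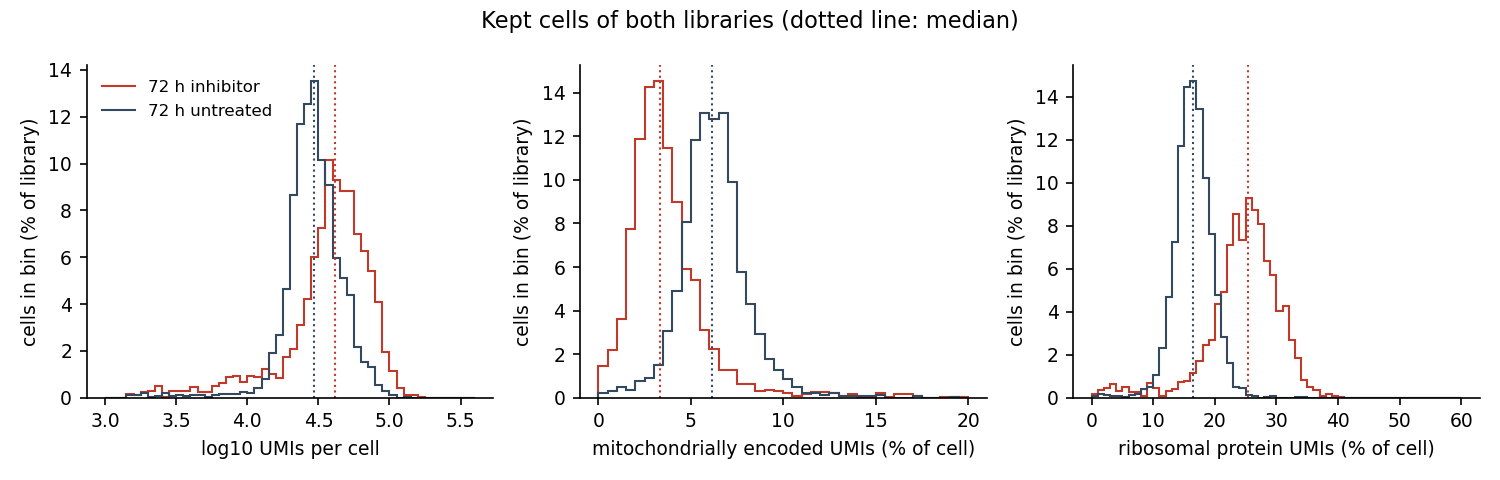
Histograms of kept cells in the 72 h inhibitor (red) and 72 h untreated (dark) libraries, as a percent of each library, by log10 UMIs per cell (left), mitochondrially encoded share (middle) and ribosomal protein share (right), with the medians dotted. The inhibitor cells reach lower and higher UMIs, and their median shares are 3.31% against 6.17% mitochondrial and 25.3% against 16.4% ribosomal protein.

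These shares also differed between cells of like UMIs, with 25.4% against 16.8% ribosomal protein and 3.15% against 6.39% mitochondrial UMIs in cells of 10000 to 20000. Among cells of 20000 to 40000 UMIs, 639 with the inhibitor and 1919 without, the median mitochondrial share was 3.19% against 6.22% and the ribosomal protein share 26.4% against 16.4%. Among cells of 40000 to 80000 UMIs, 877 and 595, the shares were 3.36% against 5.98% and 25.2% against 16.5%. In the few cells of 5000 to 10000 UMIs, 75 and 27, the ribosomal protein share was 16.6% against 14.9% and the mitochondrial share 3.71% against 4.39%. In these 2 shares, such shallow inhibitor cells were closer to untreated ones than deeper inhibitor cells were. The whole make-up differed by 23.3% of RNA there and by 19.0% among cells of 20000 to 40000 UMIs. Counting noise raises this measure where few cells are summed, so the 2 values cannot be compared. RNAs retained in the nucleus, such as MALAT1, also differed in shallow cells, at 36539 against 19698 CPM (UMIs per 1000000 UMIs of the summed cells) among cells of 5000 to 10000 UMIs, 18975 against 10154 at 10000 to 20000, and 10479 against 10389 among cells of 20000 to 40000. Above 80000 UMIs they again differed, at 7867 against 4934 CPM.

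Epithelial markers of the line were present in both libraries. All 10 genes of the marker list that reached 10 CPM in either library were lower with the inhibitor, with a median log2 ratio of -0.46. These 10 include ESR1 and ERBB2, whose low level is itself the marker. The list's summed UMIs were lower in 71.2% of pairs. Below 10 CPM, VIM was higher at 5.68 against 2.16 CPM and KRT14 lower at 3.49 against 7.27. KRT8 and KRT18, keratins of simple epithelium, stood at 520 against 967 and 2040 against 2981 CPM. The smallest difference of the 10 was that of EGFR. EGFR, the growth factor receptor that MDA-MB-468 carries in many copies, stood at 2391 CPM with the inhibitor and 2570 without, and EPCAM, an epithelial adhesion molecule, at 337 and 400. Of the receptor genes whose low level defines a triple-negative line, ESR1 stood at 4.37 and 10.1 CPM and PGR had 2 and 0 UMIs. ERBB2 stood at 10.42 and 20.04 CPM. Of 15 markers of blood, endothelial, stromal and other cells, 5 had no UMI in either library and none reached 10 CPM. Their sum was 11.8 and 13.0 CPM. CD68 was the highest of them with the inhibitor, at 7.07 against 2.60, and COL1A1 the highest without it, at 3.78 against 5.88. Both libraries shared 3 cell barcodes.

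Counts were then summed over the kept cells, 85376888 UMIs with the inhibitor and 93898612 without, and scaled to CPM. Genes that reached 10 CPM in either library were compared. Of these 9346, 185, or 1.98%, were more than 2-fold higher with the inhibitor and 687, or 7.35%, more than 2-fold lower. Between the untreated libraries, 5.56% of 9303 genes were more than 2-fold higher at 72 h than at 0 h and 1.48% lower. The higher side thus held more genes between the untreated libraries, and the lower side more between inhibitor and untreated. Of the 9346 genes, 1.75% lay more than 2-fold above both untreated libraries with the inhibitor and 4.63% more than 2-fold below both. Of all 9346 genes 39.0% were higher by any amount and the rest lower or equal, and counts of higher and lower members of a list below are to be read against that share. In the middle of the distribution, 46.7% of genes lay within 1.25-fold. The tails held 18 genes over 4-fold higher and 68 over 4-fold lower.

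The median log2 ratio of all genes was -0.14, and -0.02 with library totals taken without ribosomal protein and mitochondrially encoded genes. The balance of higher to lower genes depends on the scaling. Setting that median to 0 gave 278 genes more than 2-fold higher and 495 lower, and scaling by the trimmed mean of M values 352 and 413. Counted as UMIs per cell, with no scaling to the library total, 817 genes were higher and 235 lower, because inhibitor cells held more UMIs. Ratios below are those of CPM and can be read against the median of -0.14.

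**Figure D2:**
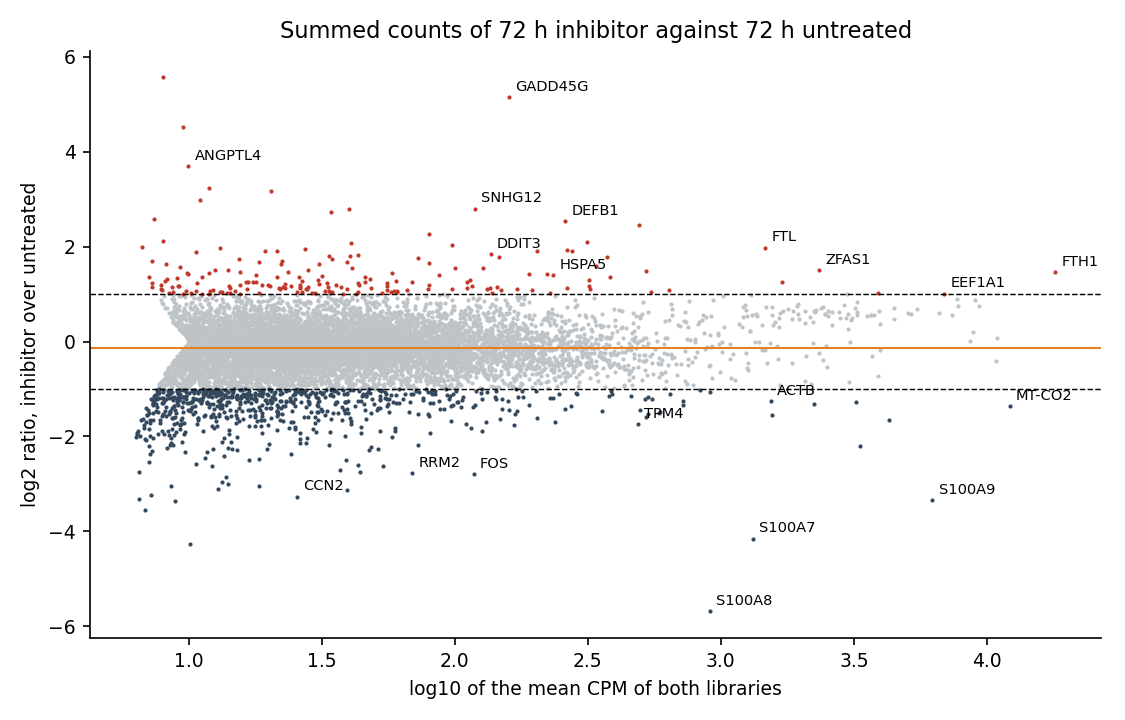
Each point is 1 of 9346 genes, by the log10 of its mean CPM in both libraries and its log2 ratio of inhibitor to untreated at 72 h, with dashed lines at 2-fold and an orange line at the median of -0.14. The 185 higher genes are red and the 687 lower ones dark, with GADD45G the highest of the labelled genes and S100A8 the lowest.

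Genes over 2-fold lower were most frequent among weakly expressed genes and next among the most abundant ones. A gene was compared if it reached 10 CPM in either library, so some weak genes entered only through the library where they were higher. This raises the shares past 2-fold, in both directions, among the weakest genes, and how far it does so was not tested. Of 2975 genes with a mean under 20 CPM 12.4% were over 2-fold lower and 2.15% higher, while of 1312 genes at 100 to 500 CPM 3.89% were lower and 2.59% higher, and of 239 genes at 500 CPM or more 9.21% were lower and 3.77% higher. Long non-coding RNA genes leaned lower more than protein-coding ones, with a median log2 ratio of -0.37 over 372 genes against -0.13 over 8959. Of the long non-coding ones 79, or 21.2%, were over 2-fold lower and 21, or 5.65%, higher. Of protein-coding genes 6.75% were over 2-fold lower and 1.83% higher, so both shares were larger among the long non-coding ones. Protein-coding genes of short and of long genomic span both leaned lower. The shortest 20% of them, up to 12063 bases long, had a median of -0.19 and the longest 20%, from 104924 bases on, one of -0.21, beside -0.08 in the middle 20%. Medians by chromosome ran from -0.03 on chromosome 13 to -0.20 on chromosome 21.

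The 6 genes over 8-fold higher, named after their values were seen, were FYB1, GADD45G, AL590004.3, ANGPTL4, PDK4 and NDRG1. FYB1, an adaptor gene best known from T cells, stood at 15.7 against 0.330 CPM and at 1.01 at 0 h. GADD45G, a stress gene that can hold the cell cycle, stood at 310 against 8.68 and 5.07. NDRG1, a stress and differentiation gene, stood at 36.8 against 4.08 and 5.43. Of these, GADD45G was the abundant one. Among the 14 genes over 8-fold lower were the S100 genes S100A7, S100A8 and S100A9, the immediate early gene NR4A1, the secretory gene AGR2 and the matricellular gene CCN2, together with the long non-coding RNAs LINC01224 and LIX1-AS1.

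Seen as RNA mass, 18.1% of the summed RNA differed in make-up, that is, 18.1% of the CPM would have to be moved between genes to turn one profile into the other. The same measure was 11.1% between 72 h and 0 h untreated cells, and 21.1% between the inhibitor library and 0 h. The gain was narrow and the loss broad: 37 genes made up 50% of all CPM gained and 159 genes 50% of all CPM lost. Ribosomal protein genes alone accounted for 49.1% of the gain. Their share of the summed RNA was 25.5% with the inhibitor, 16.6% at 72 h untreated and 18.6% at 0 h. Mitochondrially encoded genes accounted for 15.5% of the loss.

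FTH1, the heavy chain of the iron store ferritin (chromosome 11, 61959718 to 61967660 on GRCh38, minus strand), was the largest single gain. It stood at 26386 CPM with the inhibitor, 9608 at 72 h untreated and 8298 at 0 h, and made up 9.29% of all CPM gained. RPS12, of the small ribosomal subunit, followed at 11722 against 6360, and EEF1A1, the elongation factor that brings aminoacyl-tRNA to the ribosome, stood at 9221 against 4581. ZFAS1, a non-coding transcript that hosts small nucleolar RNAs (snoRNAs), stood at 3450 against 1213 and 694 at 0 h. The largest losses were MT-CO2, a subunit of cytochrome c oxidase, at 6849 against 17522 and 17988, and S100A9, a subunit of the calcium-binding protein calprotectin, at 1118 against 11356 and 6076. These made up 5.91% and 5.67% of all CPM lost.

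**Figure D3:**
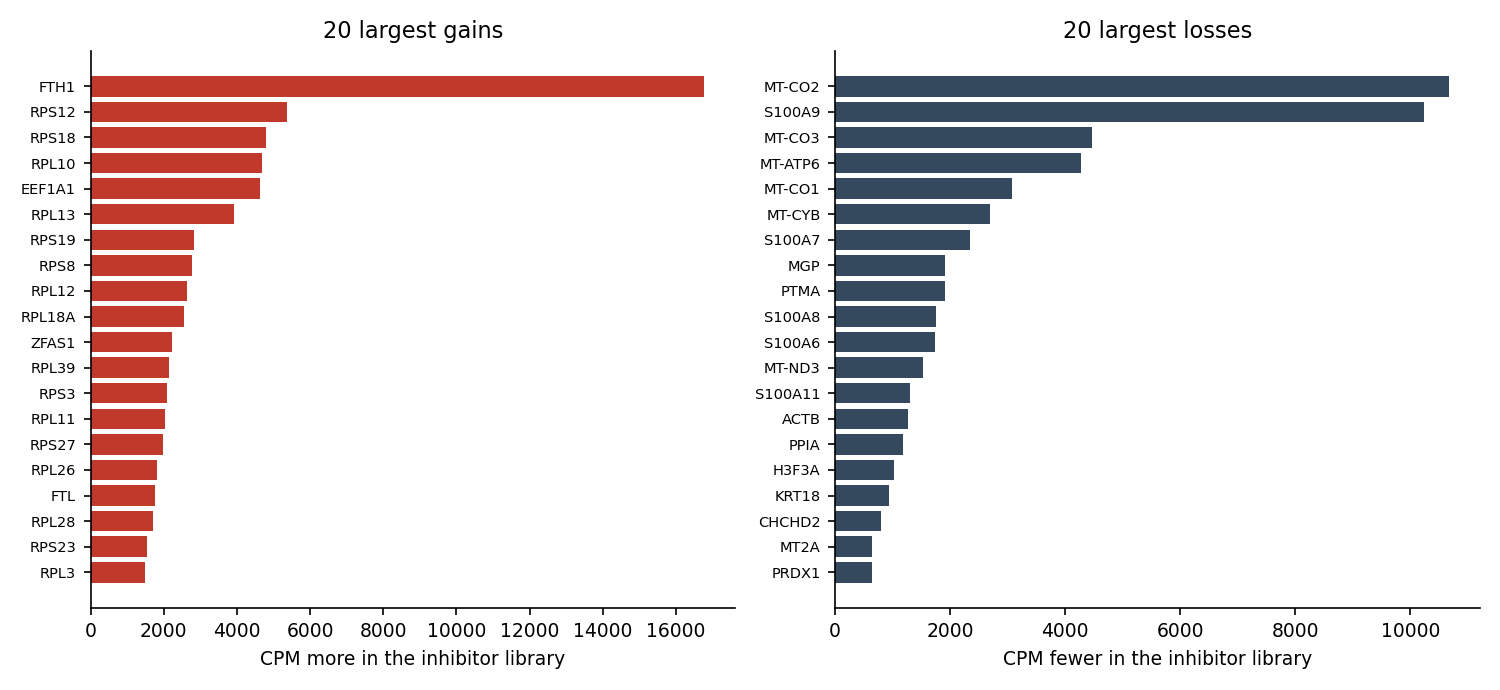
Bars give the difference in CPM between the inhibitor and the untreated library at 72 h for the 20 genes with the largest gain (left) and the 20 with the largest loss (right). FTH1 gained 16779 CPM, far above the ribosomal protein genes that fill most of the left panel, and MT-CO2 and S100A9 lost 10673 and 10238.

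Summed counts do not show whether a difference was spread over the cells. For each gene, all pairs of 1 inhibitor and 1 untreated cell, both thinned to 5000 UMIs, were compared, ties counting equally to both sides, so that 50% means no difference. Of the 9346 genes, 84, or 0.899%, were higher with the inhibitor in at least 70% of pairs and 59, or 0.631%, lower in at least 70%. Between the untreated libraries these shares were 0.236% and 0.355% of 9303 genes. Of the 185 genes over 2-fold higher, 22 were also higher in at least 70% of pairs, and 62 of the 84 pair-wise higher genes were under 2-fold. Of the 687 genes over 2-fold lower, 35 were lower in at least 70% of pairs, and 459 lay between 45% and 55%. A thinned cell rarely holds more than 1 UMI of a weak gene, so the pair measure sees abundant genes and the fold sees weak ones as well.

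The 84 pair-wise higher genes were mainly 1 functional group. Cytosolic ribosomal protein genes were 56 of them and snoRNA host genes 10. ZFAS1 had a median of 17 UMIs per thinned cell with the inhibitor and 6 without, and was higher in 92.7% of pairs. EEF1A1 had 45 and 22 UMIs, with 92.5% of pairs, and RPS12 57 and 31, with 92.1%. The ferritin genes were nearly as evenly higher. FTL, the ferritin light chain, had 10 and 3 UMIs, with 90.5% of pairs, and FTH1 120 and 39, with 88.7%.

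Other genes in this set were UPP1, SQSTM1, TAF1D, DEFB1, NUPR1 and GADD45G. UPP1, which splits uridine and feeds its sugar into metabolism, stood at 832 against 151 CPM and was higher in 86.8% of pairs. SQSTM1, the autophagy receptor p62, had a median of 4 UMIs against 1, with 82.9% of pairs. TAF1D, a subunit of the factor that starts ribosomal RNA transcription and itself a snoRNA host, stood at 419 against 110 CPM. DEFB1, a constitutive antimicrobial defensin of epithelia, stood at 443 against 75.9 CPM and was seen in 67.2% against 27.1% of thinned cells.

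**Figure D4:**
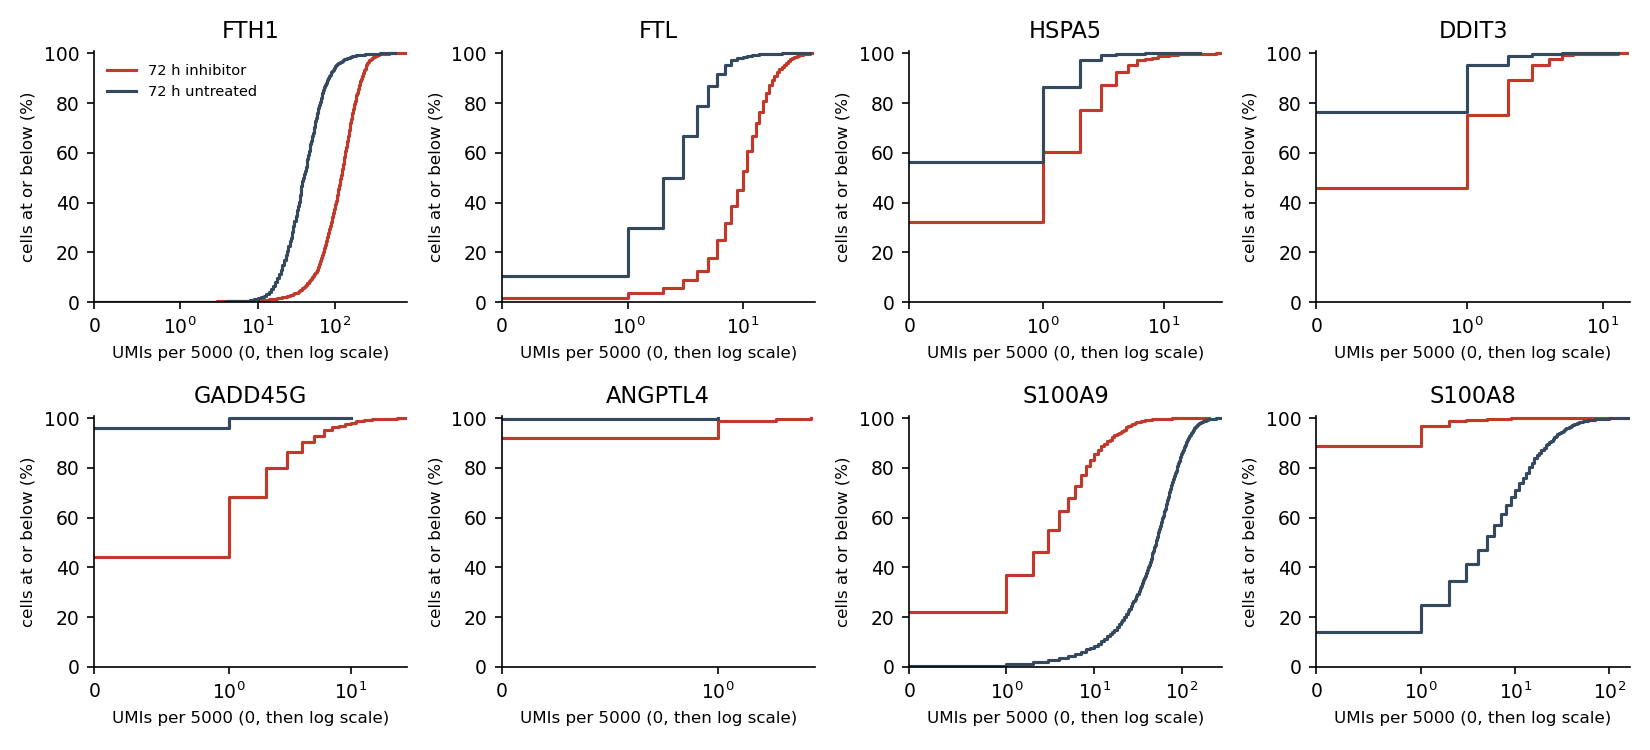
Each panel shows, for 1 gene, the percent of thinned cells at or below a number of UMIs per 5000, with 0 at the left and a log scale above 1 UMI, for the 72 h inhibitor (red) and untreated (dark) libraries. FTH1 and FTL are shifted over nearly all cells, HSPA5 was seen in 67.7% against 43.8% and DDIT3 in 54.1% against 23.5% of cells, GADD45G and ANGPTL4 were seen in 56.0% against 3.92% and 8.08% against 0.555% of cells, and S100A9 and S100A8 are shifted downward.

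Across the lists of genes, read as UMIs per thinned cell, the S100 family, described further on, separated the libraries the most, with fewer UMIs in 96.5% of pairs, and the snoRNA hosts and ribosomal proteins followed with more. Of 84 measured cytosolic ribosomal protein genes 80 were higher with the inhibitor, with a median log2 ratio of 0.56 beside -0.14 over all genes, yet just 2 passed 2-fold. The cells' sum over the list had a median of 1298 UMIs against 838, and 93.2% of pairs were higher. RPL22L1, a paralog of RPL22 that takes part in splicing, was one of the pair past 2-fold, at 508 against 169 CPM. Of 54 translation factor genes 39 were higher, 1 of them past 2-fold, with a median log2 ratio of 0.21. Their summed UMIs were higher in 92.6% of pairs, but the median share of pairs over the 54 single genes was 52.0%. EEF1A1 alone stood at 9221 against 4581 CPM, within a list sum of 23915 against 16316. EIF1, which helps select the start codon, stood at 1345 against 696 CPM. Of 22 measured snoRNA host genes 19 were higher and 10 passed 2-fold, with a median of 0.80. The list had a median of 59 UMIs per thinned cell against 24, with 96.3% of pairs higher. EPB41L4A-AS1, one such host, was seen in 87.53% against 43.1% of cells. SNHG12 was seen in 59.2% against 11.9%, and SNHG1 stood at 322 against 85.8 CPM.

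Of 7675 compared genes matched to the RefSeq promoter table, 598 had a start site with C followed by 4 bases that are each C or T, as in the sequences of RPS12 and EEF1A1. This was 7.79% of matched genes and 5.14% of all genes in the table, 71.6% of 67 matched ribosomal protein genes, 26.7% of 45 translation factor genes and 22.2% of 18 snoRNA host genes. The median log2 ratio was 0.05 for genes with such a start and -0.15 for the 7077 without. Without the ribosomal protein, translation factor and snoRNA host genes, the remaining 534 had a median of -0.01. The first value thus includes these lists. Between 72 h and 0 h untreated, the medians were 0.08 with and 0.12 without such a start. The start was searched after the values were seen.

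The summed UMIs of the ATF4 and CHOP list were higher in most pairs of cells, while most of its members taken singly were close to even. Of 24 measured genes of the PERK-ATF4-CHOP list 18 were higher and 4 passed 2-fold, with a median log2 ratio of 0.30. Per thinned cell the list had a median of 20 UMIs against 14, and 77.9% of pairs were higher. The median share of pairs over the 24 single genes was 52.3%, beside 51.2% for the ER chaperone list, and 1 of them passed 70%. Cells below the untreated 10th percentile almost disappeared, with 0.642% against 5.82%, and 38.2% (36.0 to 40.4) of inhibitor cells lay above the untreated 90th percentile, beside 8.39% of the untreated. Between the untreated libraries at 72 h and 0 h, which share the 72 h untreated library with this comparison, the list had a median of 0.74.

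DDIT3 (chromosome 12, 57516588 to 57521737) stood at 213 CPM with the inhibitor, 59.7 at 72 h untreated and 18.5 at 0 h, and was seen in 54.1% against 23.5% of thinned cells. ATF4 itself stood at 256, 256 and 266 CPM, with 49.7% of pairs. GDF15, a secreted stress cytokine, was seen in 15.5% against 2.01% of cells, and PPP1R15A, which restores translation after stress, in 31.1% against 14.4%. PSPH, the last enzyme of serine synthesis, went the other way at 80.3 against 170 CPM. The 20 cytosolic tRNA synthetase genes, which load amino acids onto tRNA, were higher in 13 and lower in 7, with none past 2-fold.

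Of 24 measured ER chaperone and ER-associated degradation genes 17 were higher and 7 lower, with 3 past 2-fold and a median of 0.24. The cells' sum had medians of 15 and 13 UMIs, so the centre of the distribution differed little, but its 95th percentile was 31 against 22 and its 5th 6 against 7. In all, 27.1% (25.1 to 29.2) of inhibitor cells lay above the untreated 90th percentile, and 60.1% of pairs were higher. The variance divided by the mean was 4.08 against 1.77, and 3.83 against 1.73 among cells of 20000 to 60000 UMIs. HSPA5 (chromosome 9, 125234853 to 125241330) was seen in 67.7% against 43.8% of thinned cells, and its 90th percentile was 4 UMIs against 2. HERPUD1, which brings misfolded proteins to degradation, stood at 278 against 103 CPM, and HYOU1, a chaperone, at 45.3 against 25.2.

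The ER stress element was found in the 300 bases around the start of 7 of 22 matched genes of this list, 31.8%, and in 0.156% of all compared genes and 0.0916% of all genes in the table. The search took exact letters within 300 bases, so inexact or more distant elements would be missed. Within the list, genes with an exact match had a lower median than those without. The 7 genes with a match had a median log2 ratio of 0.08 and ran from -0.24 to 1.39, and the 15 without a match had a median of 0.54. HSP90B1, CALR and XBP1, which have the match, were close to their untreated levels, while HSPA5, which has it too, was at 340 against 130 CPM. The ATF4 composite element, searched as TGATGNAA on either strand, was found in 4 of 20 genes of the ATF4 list and in 2.59% of compared genes. Those 4 had a median of 0.11.

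Genes of fatty acid use went both ways. The drug's targets were lower or near the limit of detection, with ACACA at 32.9 against 57.7 CPM and seen in 15.3% against 24.3% of thinned cells, and ACACB at 2.60 against 3.50. Of 17 measured fatty acid synthesis genes 12 were lower, a share near that of all genes, with none past 2-fold, and 65.2% of pairs had fewer list UMIs with the inhibitor. FASN, the synthase that uses malonyl-CoA, was seen in 18.5% against 31.6% of cells. Of the lipid droplet and PPAR-type list, 8 of 13 measured genes were higher and 5 lower, with a median of 0.09. PDK4, which blocks the use of pyruvate, was seen in 10.6% against 1.25% of cells and ANGPTL4, which blocks lipoprotein lipase, in 8.08% against 0.555%. PLIN2, a coat protein of lipid droplets, was seen in 38.9% against 15.98%, whereas UCP2, a mitochondrial carrier, was lower at 33.6 against 128 CPM. The sum over this list was higher in 51.8% of pairs.

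The cell cycle lists were lower, with a smaller difference in cells of under 20000 UMIs. All 30 measured genes of mitosis were lower with the inhibitor and 18 passed 2-fold, with a median log2 ratio of -1.15, beside 0.12 between the untreated libraries. Cells above the untreated 90th percentile of 39 UMIs made up 3.69% (2.89 to 4.65) against 9.81%. Among cells of 20000 to 40000 UMIs the list stood at 821 against 2750 CPM. Among those of 10000 to 20000 UMIs it stood at 1754 against 2231, and among those of 40000 to 80000 at 1578 against 4401. ASPM, a spindle pole protein, stood at 23.1 against 93.02 CPM, and CCNB1, the cyclin that drives entry into mitosis, was seen in 13.6% against 33.6% of cells.

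The CHR element was found in 18 of 25 matched genes of mitosis, 72.0%, beside 13.7% of all compared genes, 18.2% of all genes in the table and 23.6% of the genes over 2-fold lower. The median was -1.22 in the 18 and -1.47 in the 7 without it, so genes of the list were lower with or without a match. In DNA replication, 26 of 27 measured genes were lower and 10 passed 2-fold, with a median of -0.73. Between the untreated libraries, with 72 h set against 0 h, that median was -0.55. RRM2, of the enzyme that makes deoxynucleotides, stood at 17.7 CPM with the inhibitor, 121 at 72 h untreated and 190 at 0 h. Histone genes were lower in 26 of 28. Of 1868 inhibitor cells, 0 lay above the untreated 90th percentile of 54 histone UMIs, with an exact interval of up to 0.197%, against 9.81% of untreated cells. The histone gene with the largest CPM loss was H3F3A, at 1158 against 2180. Histone genes tied to DNA replication were not set apart from the others.

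The list of arrest genes was carried by few members. Of 17 measured, 8 were higher and 9 lower with a median of -0.11, whose sign turned with median-of-ratios scaling, equal weight per cell and the 0 h library, but 77.6% of pairs had more list UMIs. GADD45G (chromosome 9, 89605013 to 89606555) was seen in 56.0% against 3.92% of cells and GADD45A in 77.1% against 53.5%. BTG1, an antiproliferative gene, stood at 156 against 65.9 CPM. The inhibitors of cyclin-dependent kinases CDKN1A and CDKN2C were lower, at 5.31 against 12.7 and 3.40 against 13.9 CPM.

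The S100 family was the list whose summed UMIs were lower in the most pairs of cells. Of 9 measured genes of the antimicrobial and calprotectin list, which overlaps it, 7 were lower and 2 higher. S100 proteins are small and bind calcium, and calprotectin, the pair of S100A8 and S100A9, withholds metal ions from microbes. Of 13 measured S100 genes 12 were lower, 6 of them past 2-fold, and the inhibitor cell held more list UMIs in 3.51% of pairs, with medians of 33 and 118. S100A9 (chromosome 1, 153357854 to 153361027) had a median of 3 UMIs against 50. S100A8 was seen in 11.2% against 85.96% of thinned cells and S100A7, or psoriasin, in 26.3% against 83.8%. S100A8 and S100A7 lie on the same stretch of chromosome 1, at 153390032 to 153391188 and 153457744 to 153460701. The calprotectin genes had themselves been higher at 72 h than at 0 h in untreated cells, with S100A8 at 1790 against 890 CPM, and stood below both at 34.8 with the inhibitor. SLPI and PI3, inhibitors of leukocyte elastase, were also lower, at 310 against 874 and 12.3 against 74.5 CPM, while DEFB1 went the other way.

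Most genes of the cytoskeleton were lower. All 21 measured actin cytoskeleton genes were lower, with 4 past 2-fold and a median of -0.62, and the inhibitor cell held more of their UMIs in 10.7% of pairs. ACTB, beta-actin, stood at 909 CPM with the inhibitor, 2177 at 72 h untreated and 2799 at 0 h. TPM4, a tropomyosin that lines actin filaments, stood at 224, 749 and 360, and CFL1, which severs them, at 547, 1116 and 1618. Of 14 measured tubulin genes 12 were lower and 7 passed 2-fold. TUBA1B stood at 276 against 793 CPM and TUBB4B at 112 against 362. ACTB, often used as a reference gene, was thus 2.40-fold (2.38 to 2.42) lower.

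Of 13 mitochondrially encoded genes 10 were lower, and they did not move alike. MT-ATP6, of ATP synthase, had a median of 4 UMIs per thinned cell against 25, and MT-CO3, of cytochrome c oxidase, 8 against 31. MT-CO1, of the same complex, had 43 against 62. MT-ND4 and MT-ND4L, of complex I, were higher at 9509 against 8234 and 489 against 303 CPM, and MT-ND5 stood at 920 against 815. Nuclear genes of the respiratory chain leaned lower in 68 of 78, with 2 past 2-fold, and NDUFC2, of complex I, stood at 328 against 741. Mitochondrial ribosomal protein genes were lower in 57 of 76, opposite to their cytosolic counterparts, with 27.3% of pairs higher. The median of these mitochondrial genes was -0.23, beside -0.28 between 72 h and 0 h untreated. Their promoters had the C and pyrimidine start in 7.46% of 67 matched genes.

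Immediate early genes, which respond within minutes to growth factors and handling, were lower in 14 of 16 with 9 past 2-fold, and 19.5% of pairs were higher. FOS was seen in 11.2% against 60.1% of cells, and NR4A1 stood at 8.05 CPM against 71.0 and 31.1 at 0 h. These genes had been higher at 72 h than at 0 h in untreated cells, with a list median of 0.58. PHLDA1, a feedback gene of growth factor signalling, went against them at 132 against 27.4 CPM, while the list of EGFR feedback genes had 43.4% of pairs higher and a median whose sign turned against the 0 h library. Genes of RNA processing were lower in most members. HNRNP genes were lower in 16 of 20 and SR splicing factor genes in 9 of 11, and SRSF3 stood at 143 against 326 CPM. Proteasome subunit genes were lower in 39 of 46, with none past 2-fold and a median of -0.31. Between the untreated libraries, with 72 h set against 0 h, that median was -0.32. The HNRNP and SR medians were -0.41 and -0.55 with the inhibitor, and -0.42 and -0.45 between the untreated libraries.

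Smaller lists had opposite members. Circadian clock genes were higher in 12 of 15, with NR1D1, a repressor of the clock, at 20.9 against 7.31 CPM and PER2, of the negative arm, at 12.8 against 29.2. Of the YAP-TEAD target list, CCN2 stood at 4.78 against 46.1 CPM and ANKRD1 at 20.9 against 5.37, so the direction differed by gene. Of the lysosome and autophagy list 18 of 28 were higher, and GPNMB, a glycoprotein of lysosomes, stood at 59.4 against 8.98 CPM. Interferon-stimulated genes were lower in 11 of 14 against the 72 h untreated library, as with BST2 at 32.5 against 63.9, but not against the 0 h one, where the sign of the list's median turned. Their summed level was 733 CPM with the inhibitor, 1018 at 72 h untreated and 627 at 0 h. Sterol synthesis genes went both ways, 10 higher and 12 lower. The 194 measured zinc finger genes, named ZNF, split into 100 higher and 94 lower. MALAT1, a long nuclear RNA, stood at 8690 against 8571 CPM, yet its 90th percentile per thinned cell was 110 UMIs against 84. The list of nuclear retained RNAs summed to 10073 CPM with the inhibitor, 9763 at 72 h untreated and 3882 at 0 h.

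**Figure D5:**
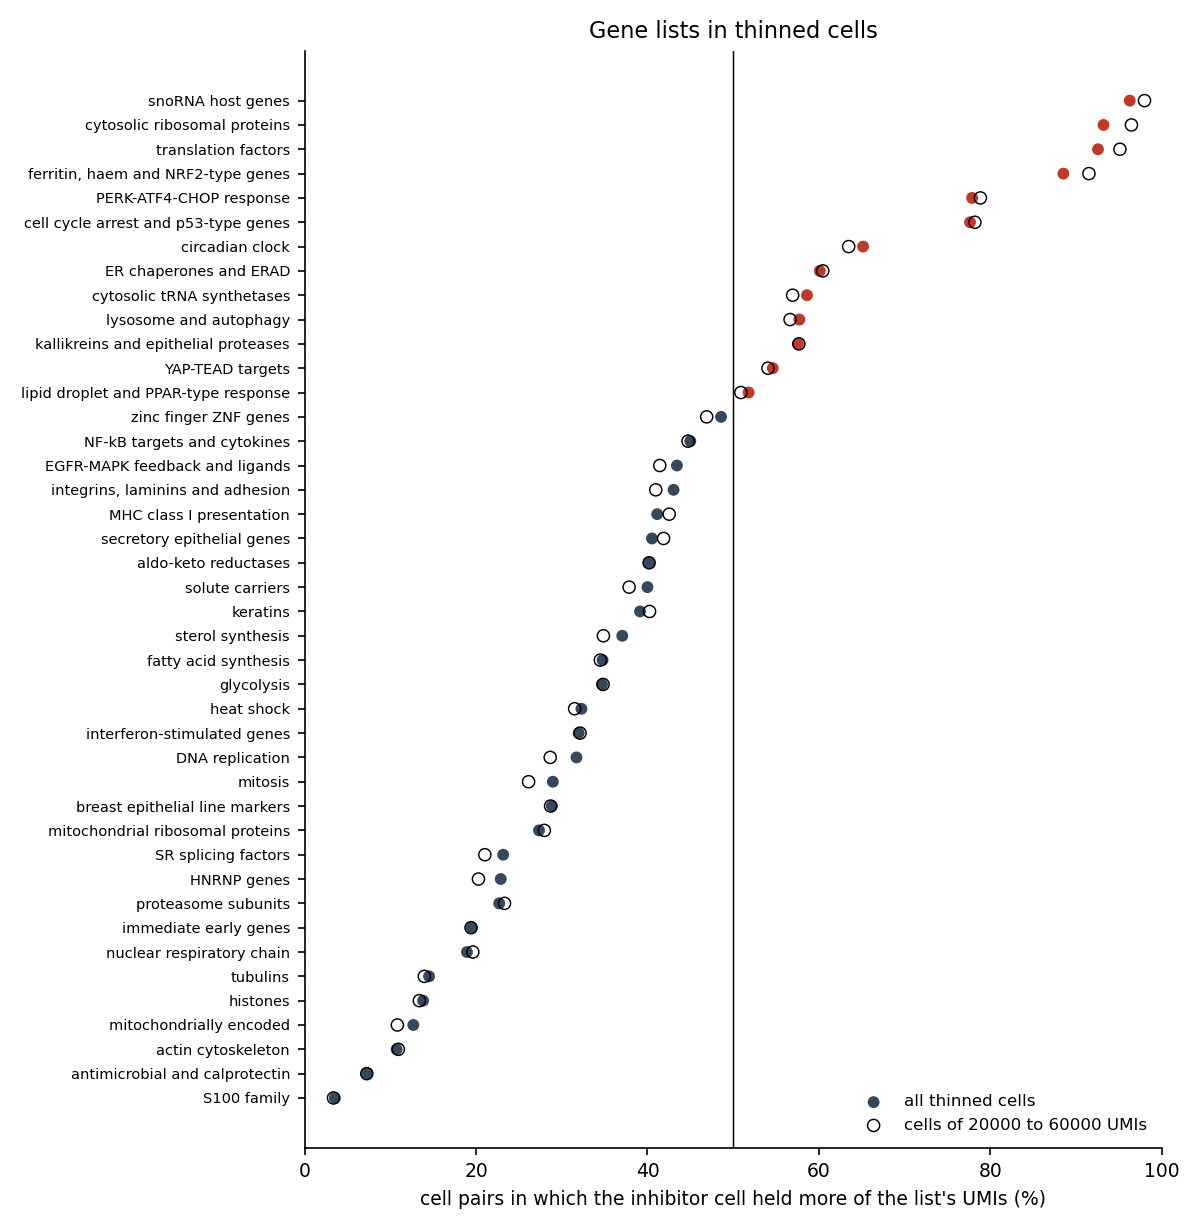
For each gene list with at least 5 measured genes, the horizontal axis gives the percent of cell pairs in which the inhibitor cell held more of the list's UMIs (ties counting equally to both sides), for all thinned cells (filled, red above 50% and dark below) and for cells of 20000 to 60000 UMIs (open). snoRNA host genes lie highest at 96.3% and the S100 family lowest at 3.51%, and open and filled points lie close together.

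Counts per cell also varied more between inhibitor cells. Of 244 genes with at least 1 UMI per thinned cell and a mean within 1.25-fold between the libraries, 210, or 86.1%, had a larger variance relative to the mean with the inhibitor, with medians of 1.20 and 1.13. Among cells of 20000 to 60000 UMIs it was 192 of 250, or 76.8%, with 1.16 and 1.12. A thinned cell rarely holds more than 1 UMI of a weak gene, so differences in such genes can be read only as shares of cells with a UMI. GDF15, PDK4, NDRG1 and MUC20, a membrane mucin, were seen in 15.5%, 10.6%, 17.3% and 15.6% of thinned cells, against 2.01%, 1.25%, 2.08% and 5.44%. A line has no cell type known to lack these genes, so free RNA in droplets could not be gauged, and its part in such shares was not tested.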

How the data were processed

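The values the authors deposited are UMI counts per gene and barcode, whole numbers for 36601 features in 5 libraries of polyadenylated RNA, made with the 10x 3' version 3.1 kit, per the labels' protocols. The submitters' processing notes name Cell Ranger 7.1.0 and the build GRCh38. Which annotation release was used, and whether intronic reads entered the counts, is not given in the sources used here. Symbols are those of the files, positions come from GENCODE 29, and older symbols were matched to lists by identifier.

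Counts of kept cells were summed and scaled to CPM, ratios have exact Clopper-Pearson intervals conditional on both counts, and a sum of 0 was set to a floor of 3 counts. Depth was 85376888 and 93898612 UMIs. Thinning used 1 random draw to 5000 UMIs per cell. The 45 lists, the rule for naming genes and the comparison were chosen with earlier results of these data known. The rule took ACACA, ACACB, HSPA5, DDIT3, ATF4 and XBP1, the largest gains and losses in CPM, the highest and lowest shares of cell pairs, the genes most and least concentrated in few cells at 50 CPM or more, up to 4 members of each list, and the largest ratios to the nearer untreated library at 20 CPM or more; a selection is printed, and a few genes outside it were named after their values were seen. Alternatives covered the cell filter, scaling, expression minimum, weighting, thinning depth and the reference library. The steps were checked on simulated data. Tools were matplotlib 3.10.9, pandas 2.3.3, scipy 1.17.1 and numpy 2.4.6, under Python 3.11.15.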

Additional observations from a re-analysis of the deposited data

How the results depend on the processing

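No paired analysis was possible because each group is 1 library, and for the same reason no replicate could be left out. The 185 higher and 687 lower genes became 278 and 495 with median-of-ratios scaling, 352 and 413 with the trimmed mean of M values, 291 and 595 with totals without mitochondrially encoded and ribosomal protein genes, and 817 and 235 as UMIs per cell. They became 2939 and 5505 with no expression minimum, 83 and 193 at 50 CPM, and 751 and 977 against the 0 h library. The cell filter, the deepest cells, equal weight per cell and a depth band kept both counts within 1.5 times. The share of RNA that differs in make-up, 18.1%, became 17.7% with equal weight per cell, 18.3% in cells of 20000 to 60000 UMIs, 15.96% without mitochondrially encoded and ribosomal protein genes, and 21.1% against 0 h. The ratio of median UMIs per cell, 1.42, was 1.38 with no cell filter, 1.43 with a mitochondrial limit of 10% and against 0 h, and 1.40 without the deepest 5% of cells. The 84 and 59 genes past 70% of cell pairs became 42 and 25 at 2000 UMIs, 113 and 121 at 10000, and 95 and 154 against 0 h, so thinning depth sets how many genes the pair measure can see. Against 0 h, ATP6V0D2, a subunit of the lysosomal proton pump, turned from a log2 ratio of 1.89 to -0.15. Of 127 named genes past 2-fold, 118 stayed past it with median-of-ratios scaling and 125 in the depth band. Against 0 h, 111 stayed past it and 46 moved by over 1.5 times. The named genes were picked largely for big differences, some by their ratio to both untreated libraries, so these counts do not stand for all genes. Over all compared genes, 164 of the 185 higher and 433 of the 687 lower ones were past 2-fold against both untreated libraries. Of 42 list medians, 8 turned sign against 0 h, those of cell cycle arrest, secretory epithelial, EGFR feedback, interferon-stimulated, MHC class I, NF-kB, heat shock and aldo-keto reductase genes. With median-of-ratios scaling 4 turned (cell cycle arrest, glycolysis, sterol synthesis, keratins), in the depth band 3 (ferritin and NRF2-type, heat shock, ZNF), with equal weight per cell 2 (cell cycle arrest, ferritin and NRF2-type), and with no cell filter 0.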
